A study of Mus musculus with 3 samples.

Results

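Genes of the potassium channel family were followed through 3 libraries of epithelial cells sorted from the villous fraction of upper small intestine (C57BL/6 mice). The members are all genes whose mouse symbol starts with Kcn, apart from Kcnj8 and Kcnj11, the pore genes of the ATP-sensitive channel. This gave 96 of the 24158 genes that had a symbol and a transcript of at least 200 bases. Of these 96, 91 encode pore-forming or accessory subunits. The other 5 share only the prefix: the antisense RNAs Kcnd3os, Kcnmb4os1, Kcnmb4os2 and Kcnq1ot1, and the regulator gene Kcnrg.

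The 3 groups are GIP-GFP, Ngn3-TOMATO and Ngn3-negative. GIP-GFP holds cells sorted by green fluorescence that make the incretin hormone GIP. Ngn3-TOMATO holds cells in which a Neurogenin 3 promoter-driven Cre recombinase had switched on a Tomato reporter at the ROSA26 locus, so that the mark persists in every descendant of a Neurogenin 3-expressing progenitor. Ngn3-negative holds the Tomato-negative epithelial cells of the same cross. The last 2 sorts used male mice and took only cells without CD45, a blood cell surface protein, whereas neither the sex nor such a gate is given for GIP-GFP in the sources used here. Each group is 1 library made from RNA pooled over animals, so there is no spread between animals, no test between groups, and each interval below covers counting and read assignment inside a library only. In sorted pools, fewer cells of a type and less RNA per cell cannot be told apart.

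Potassium channels let potassium leave the cell along its gradient and so hold the membrane potential negative. In hormone-secreting cells, closing them depolarises the membrane and opens calcium channels that trigger secretion, and voltage-gated members end each action potential. In absorptive and secretory epithelium, potassium channels of the basolateral membrane return the potassium taken up by the sodium pump and keep the driving force for chloride secretion. Pore-forming alpha subunits assemble as tetramers (dimers for the 2-pore class), and accessory subunits set their gating.

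Levels are given in scaled FPKM, the deposited FPKM summed over the transcripts of a gene and divided by 1 number common to all libraries. Where 3 values follow a name without further labels, the first belongs to GIP-GFP, the next to Ngn3-TOMATO and the last to Ngn3-negative. At 1 scaled FPKM the mean coverage of a transcript was 0.276, 0.667 and 0.502 reads per base. Read bases over the listed transcripts came to 592.1, 1380 and 1030 Mb in that order, so low values are least certain in GIP-GFP. Summed markers of enteroendocrine cells stood at 13600, 23700 and 375 scaled FPKM in the same order, and those of goblet cells at 4860, 164000 and 29300. The Ngn3-TOMATO sort, labelled as enteroendocrine, thus held more goblet cell RNA than the sort labelled as non-endocrine. Smooth muscle and stroma markers summed to under 1 scaled FPKM in each library (0.158, 0.588 and 0.795).

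Of the 96 members, 42 reached 1 scaled FPKM in at least 1 library, 39 were above 0 but below 1 in every library, and 15 were listed at 0 throughout. At 1 or more stood 41 members in Ngn3-TOMATO, 34 in GIP-GFP and 18 in Ngn3-negative. Of all 24158 genes, 13122 stood at 1 or more in Ngn3-TOMATO, 13034 in GIP-GFP and 11957 in Ngn3-negative. The summed level of the family differed less than its counts of members and was highest in Ngn3-TOMATO, at 685.3, 962.8 and 618.8 scaled FPKM. That was 0.0659%, 0.0906% and 0.0690% of all gene values. Which channels made up that sum differed as well.

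In GIP-GFP the inward rectifiers led, with a summed 229 scaled FPKM or 33.4% of the family, while they held 7.74% and 2.18% of it in the other libraries. In Ngn3-TOMATO the 2-pore channels led with 292, or 30.4%. In Ngn3-negative the accessory subunits led with 259, or 41.9%, and nearly all of that was Kcne3 alone at 256. Voltage-gated alpha subunits of the Kv1 to Kv4 subfamilies made up 13.8% and 12.7% of the family in the reporter sorts and 0.716% in Ngn3-negative. The EAG, ERG and ELK channels made up 17.3% and 17.0% against 1.01%.

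**Figure D1:**
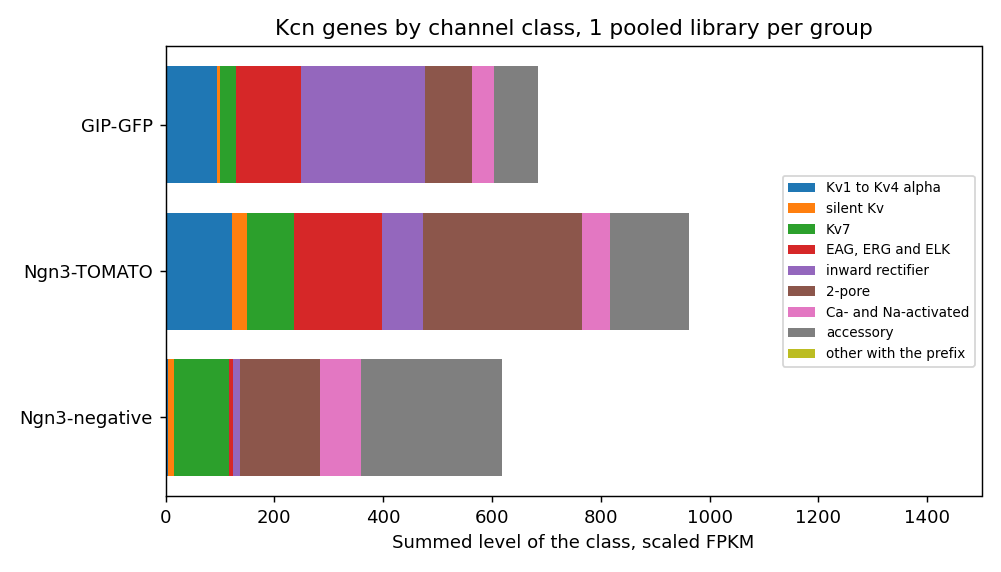
Summed level of the Kcn genes of each channel class, in scaled FPKM on a linear axis, as stacked bars for the 3 libraries, each 1 pooled library. Inward rectifiers take 33.4% of the GIP-GFP bar, 2-pore channels 30.4% of the Ngn3-TOMATO bar and accessory subunits 41.9% of the Ngn3-negative bar.

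Several patterns of level recur below, and each is represented here by the stretch of 250 bases before the start site of 1 member. Kcnj3 was highest in GIP-GFP, Kcnh6 was high in both reporter sorts, Kcnk16 was highest in Ngn3-TOMATO, and Kcne3 was highest in Ngn3-negative. The sequences are from RefSeq (GRCm38.p6, the mm10 sequence), read 5′ to 3′ on the gene's strand. They lie at chr2:55435720-55435969 (plus strand) for Kcnj3, chr11:106007898-106008147 (plus) for Kcnh6, chr14:20269270-20269519 (minus) for Kcnk16 and chr7:100178433-100178682 (plus) for Kcne3. Capitals mark each CG dinucleotide and, in Kcnk16, the letters CAGATG.
Kcnj3: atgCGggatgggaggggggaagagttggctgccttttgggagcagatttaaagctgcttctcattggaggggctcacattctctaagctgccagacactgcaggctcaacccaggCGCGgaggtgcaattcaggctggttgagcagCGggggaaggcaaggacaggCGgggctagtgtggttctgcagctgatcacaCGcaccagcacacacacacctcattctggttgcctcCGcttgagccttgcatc
Kcnh6: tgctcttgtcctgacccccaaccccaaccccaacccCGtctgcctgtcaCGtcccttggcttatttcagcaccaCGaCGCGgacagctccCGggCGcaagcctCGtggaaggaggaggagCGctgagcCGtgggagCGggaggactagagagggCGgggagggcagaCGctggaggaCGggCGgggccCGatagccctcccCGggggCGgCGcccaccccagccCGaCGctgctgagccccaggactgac
Kcnk16: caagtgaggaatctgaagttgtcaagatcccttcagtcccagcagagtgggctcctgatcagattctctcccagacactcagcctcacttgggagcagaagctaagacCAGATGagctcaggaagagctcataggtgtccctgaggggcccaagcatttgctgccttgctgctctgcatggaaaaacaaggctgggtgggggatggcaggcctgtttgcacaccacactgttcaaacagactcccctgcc
Kcne3: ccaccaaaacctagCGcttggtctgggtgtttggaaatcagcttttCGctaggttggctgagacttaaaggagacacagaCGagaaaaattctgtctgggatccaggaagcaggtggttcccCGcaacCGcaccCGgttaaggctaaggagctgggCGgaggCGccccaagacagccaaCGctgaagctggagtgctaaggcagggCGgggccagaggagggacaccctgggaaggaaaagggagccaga

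The start site used lies 811 bases from the 5′ end of the most abundant Kcnj3 transcript, 55 bases for Kcnh6, 107 for Kcnk16 and 0 for Kcne3. The windows hold 7, 21, 0 and 10 CG dinucleotides respectively. Over the 27 measured members with a promoter in the table, the median was 14, against 6 over all 32851 promoters. The 27 have 1 window per gene, whereas all promoters include several for some genes and genes not measured here. The sets are therefore unlike, here and for the letter matches that follow. CAGATG, the E-box form bound by NeuroD-type factors, was searched on both strands (CATCTG on the other). It occurred in 3 of the 27 (11.1%): Kcnk16 at 142 bases before the start, Kcnk2 and Kcnip4. The start site used for Kcnip4 lies 89921 bases from the 5′ end of its most abundant transcript, and that for Kcnh2 22013 bases. Such windows need not be promoters of the transcripts measured here. CAGATG occurred in 14.4% of all promoters of this length. TATAAA, searched in both directions, occurred in Kcnj13 alone among the 27 and in 12.4% of all promoters. The cyclic AMP response element TGACGTCA occurred in none of the 27 and in 1.55% of all. Bases just after the start site were found in a GENCODE transcript of the gene for 22 of the 27. That held for Kcnj3, Kcnh6 and Kcne3 but not for Kcnk16. The motif results are matches of letters in 1 window per gene and say nothing of binding.

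Setting the Ngn3-TOMATO library beside Ngn3-negative asks which channels are more abundant in the Neurogenin 3 lineage. Most channel genes that could be measured were at least 2-fold higher in the lineage, led by the voltage-gated Kcnc1, the 2-pore Kcnk16 and the ERG channel Kcnh6. The Kcnc1 lead rests in part on a model with the status LOWDATA, which gave 40.0 of its 78.2 scaled FPKM in Ngn3-TOMATO. In Ngn3-negative the other Kcnc1 models stood at 0.567 and 0, below 1. A smaller group, Kcnk5, Kcnk10, Kcnn4, Kcne3 and Kcns3, was lower by 2-fold or more. Of 42 members at 1 or more in either library, 31 were higher by 2-fold or more and 5 were lower to that extent. Over all 13432 genes measured in that pair, 19.3% were higher and 9.95% lower. The median log2 ratio was 1.86 over these members and 0.03 over all genes. However, 24 of the 42 passed the minimum through Ngn3-TOMATO alone, so they could only come out higher. Among the 17 at 1 or more in both libraries, 9 were higher and 5 lower, against 12.3% and 10.3% of all genes treated alike.

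When GIP-GFP was set against the Tomato-negative cells, 21 of 35 measured members were higher by 2-fold or more and 7 lower. Of all 13454 genes 21.0% were higher and 13.8% lower. The medians were 1.76 for members and 0.07 for all genes. Here 17 of the 35 passed through GIP-GFP alone, and of the 17 at 1 or more in both libraries 4 were higher and 7 lower, against 14.1% and 14.2% of all genes treated alike. Kcnj3 (log2 6.09) and Kcnj5 (5.08) had the highest ratios of the measured members, as the plot of ratios to Ngn3-negative shows. Kcnj5 was among those that passed through GIP-GFP alone. Kcnj3 was only just above the minimum in Ngn3-negative, at 1.02 (95% counting interval 0.606 to 1.44).

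The third comparison set the GIP-GFP sort against the whole lineage. Of 42 measured members 5 were at least 2-fold higher in GIP-GFP (among them Kcnj4, Kcnj3, Kcnj5 and Kcnh1) and 14 were lower by 2-fold or more, against 8.00% and 8.79% of all 13718 genes. The medians were -0.51 for members and 0.08 for all genes. Only Kcnip4 passed through GIP-GFP alone and 8 passed through Ngn3-TOMATO alone. Of the 33 members at 1 or more in both, 5 were higher and 8 lower, against 6.43% and 6.21% of all genes. The 3 comparisons share their libraries and are not independent.

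Scaling the libraries to equal totals moved the median of all genes by more than any other scaling, from 0.03 to -0.20 for Ngn3-TOMATO over Ngn3-negative. The share of 2-fold calls that were in the higher direction then fell from 65.9% to 53.2% over all genes, and the members stood at 28 higher and 5 lower. With a pseudocount of 5 in place of 1 the members higher by 2-fold or more in this comparison numbered 18, since many of these channels are at low levels.

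**Figure D2:**
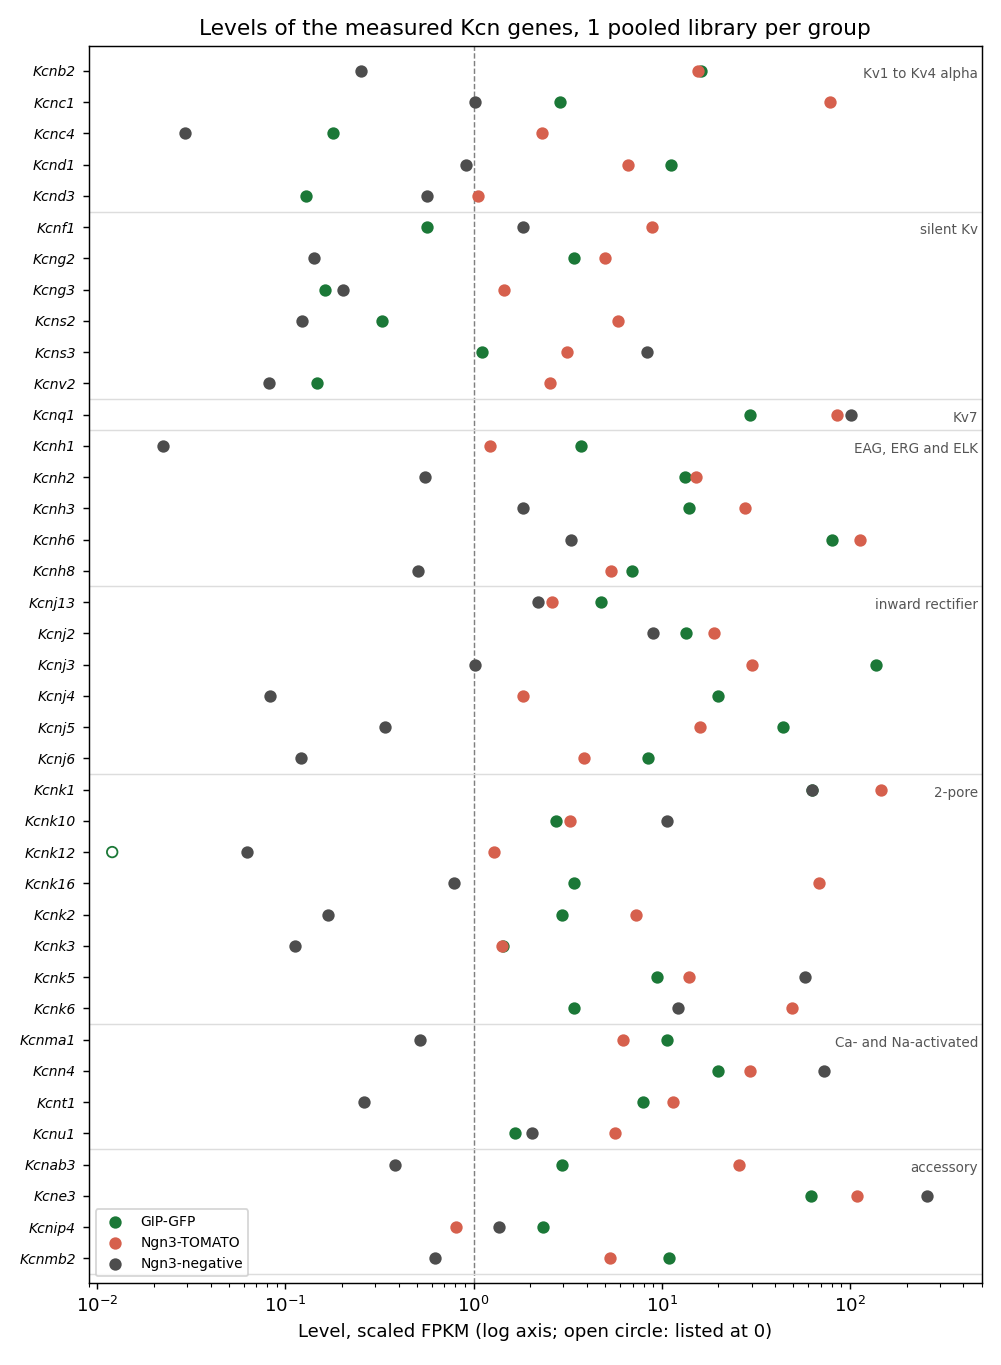
Level of each measured Kcn gene that is reported here, in scaled FPKM on a log axis, by channel class, 1 point per pooled library; the dashed line marks 1 scaled FPKM and the open circle a gene listed at 0. The inward rectifiers Kcnj3, Kcnj4, Kcnj5 and Kcnj6 are highest in GIP-GFP, while Kcne3, Kcnq1, Kcnn4 and Kcnk5 are highest in Ngn3-negative.

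Delayed rectifiers of the Kv2 subfamily repolarise the membrane after each action potential. Kcnb2 (mm10, chromosome 1, 15312452 to 15714214) had 16.2 scaled FPKM in the GIP-GFP library, 15.5 in Ngn3-TOMATO but 0.253 in Ngn3-negative. Both reporter sorts were 13-fold or more above Ngn3-negative, with log2 ratios of 3.78 (95% counting interval 3.60 to 3.96) and 3.72 (3.56 to 3.88), and the ratio between them was 0.07 (-0.06 to 0.20). As Kcnb2 was below 1 in Ngn3-negative, it could only come out higher in the reporter sorts.

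The channels of the Kv3 subfamily open and close fast. Kcnc1 (chromosome 7, 46396468 to 46433353) was at 2.88 (GIP-GFP), 78.2 (Ngn3-TOMATO) and 1.02 (Ngn3-negative). It was thus 39.2-fold higher in the lineage than in Ngn3-negative and 20.4-fold lower in GIP-GFP than in the lineage. In Ngn3-TOMATO 40.0 of its 78.2 came from a model of 1867 bases whose estimate has the status LOWDATA, so no interval is given. The 7788-base model alone stood at 2.08, 38.1 and 0.567, in the same order of libraries. Kcnc4, of the same subfamily, was at 0.178, 2.32 and 0.0292. As it was at 1 or more in Ngn3-TOMATO alone, it could only come out highest there.

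The A-type channel gene Kcnd1, of the fast inactivating Kv4 subfamily, was at 11.2, 6.64 and 0.911, and Kcnd3 was at 0.128, 1.06 and 0.566. No gene of the Kv1 subfamily (Kcna1 to Kcna7 and Kcna10) reached 1 scaled FPKM in any library. Among these Kcna3, the Kv1 channel of T lymphocytes, was at 0.430, 0.203 and 0.356. The 6 lymphocyte markers summed to 334, 55.7 and 139 scaled FPKM and were each highest in GIP-GFP, where no CD45 gate is stated. Their part in the channel results was not tested.

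Silent subunits form no channel alone and modify Kv2 channels when they join them. Of the 6 that reached 1 scaled FPKM, Kcng2, Kcng3, Kcns2 and Kcnv2 were below 1 in Ngn3-negative and could only come out higher in the lineage. Kcnf1 was at 0.567, 8.92 and 1.83 and Kcns2 at 0.326, 5.86 and 0.123. Kcnv2 was at 0.147, 2.56 and 0.0817 and Kcng3 at 0.162, 1.45 and 0.202. Kcns2, Kcnv2 and Kcng3 were below 1 in GIP-GFP as well, so they could only come out highest in Ngn3-TOMATO. Kcng2 was at 3.43, 5.01 and 0.142, present in both reporter sorts. Kcns3 went the other way, at 1.11, 3.15 and 8.38, which gave -1.18 (log2, -1.43 to -0.92) for Ngn3-TOMATO over Ngn3-negative. Under equal totals Kcng3 was no longer past 2-fold against Ngn3-negative (log2 0.95).

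Of the EAG, ERG and ELK group, 5 genes reached 1 scaled FPKM. Kcnh1, Kcnh2 and Kcnh8 did so in the reporter sorts alone, so that they could only come out higher there, while Kcnh3 and Kcnh6 were above 1 in every library. ERG channels, encoded by Kcnh2 and Kcnh6, pass a current that helps set the resting potential and firing of excitable and endocrine cells. Kcnh6 (chromosome 11, 106008203 to 106034064) was at 79.9, 113 and 3.31 scaled FPKM, ranked 2 among the members of each reporter sort. The log2 ratio was 4.73 (4.48 to 4.98) for Ngn3-TOMATO and 4.23 (3.96 to 4.50) for GIP-GFP over Ngn3-negative, and -0.50 (-0.62 to -0.38) between the reporter sorts. Kcnh2 was lower in level but split alike, at 13.3, 15.2 and 0.550. The ELK genes Kcnh3 (13.9, 27.7 and 1.82) and Kcnh8 (6.93, 5.39 and 0.509) were also in both reporter sorts, although Kcnh3 shares exon sequence with Mcrs1 and is uncertain. The EAG gene Kcnh1 was at 3.71, 1.22 and 0.0224, with a log2 ratio of 1.09 (0.88 to 1.30) for GIP-GFP over Ngn3-TOMATO.

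Inward rectifiers pass potassium near the resting potential. The subunits encoded by Kcnj3, Kcnj5 and Kcnj6 form G protein-gated (GIRK) channels, which open when inhibitory G protein-coupled receptors are active and then quiet the cell. Kcnj3 (chromosome 2, 55436781 to 55595525) reached 137 scaled FPKM in GIP-GFP against 30.3 for Ngn3-TOMATO and 1.02 for Ngn3-negative. It was the most abundant Kcn gene of the GIP-GFP library, with 20.0% of the family's sum. Its log2 ratio was 6.09 (5.78 to 6.40) for GIP-GFP over Ngn3-negative and 2.14 (2.01 to 2.28) for GIP-GFP over Ngn3-TOMATO, or 4.41-fold. Its usual partner Kcnj5 (chromosome 9, 32314783 to 32344237) was at 44.2, 15.9 and 0.338. That gave a log2 ratio of 1.42 between the reporter sorts, with a wide interval of 0.81 to 2.03. Kcnj6 was at 8.40, 3.88 and 0.121, and the log2 ratio between the reporter sorts was 0.95 (0.64 to 1.25), just short of 2-fold. The remaining GIRK gene, Kcnj9, stayed below 1, at 0.489, 0.144 and 0.

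Of the strong inward rectifiers, which hold the resting potential, Kcnj4 (chromosome 15, 79483714 to 79505241) was at 19.9, 1.84 and 0.0827. Its log2 ratio of 2.88 (2.58 to 3.18), or 7.37-fold, was the highest of all measured members for GIP-GFP over Ngn3-TOMATO. Kcnj2, of the same subfamily, was spread over the 3 libraries at 13.5, 18.9 and 8.99, with log2 ratios within 1 of 0 in each comparison; that of Ngn3-TOMATO over Ngn3-negative was 0.99 (0.86 to 1.12) and passed 2-fold under the median-ratio scaling. Kcnj13 was at 4.75, 2.61 and 2.21, and it lies across exons of Gigyf2, so its reads may be shared. The other inward rectifier genes Kcnj1, Kcnj10, Kcnj12, Kcnj14, Kcnj15 and Kcnj16 were below 1 in every library.

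**Figure D3:**
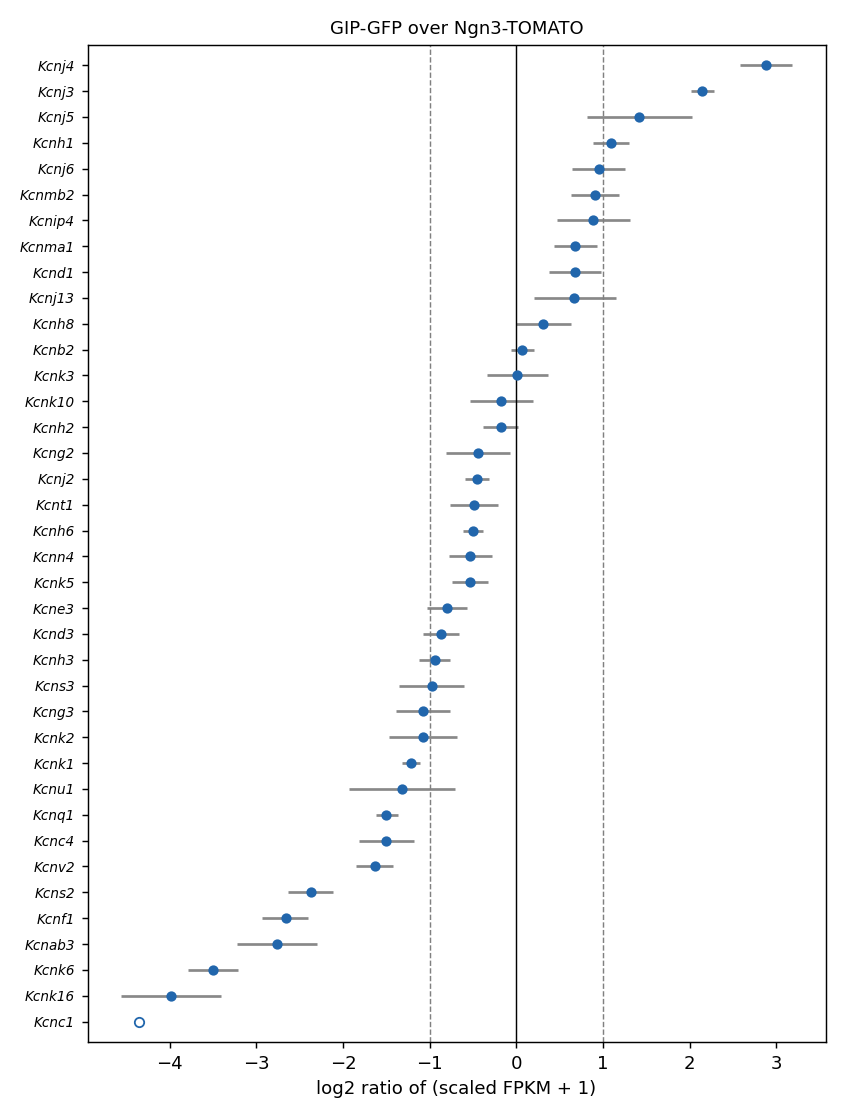
Log2 ratio of GIP-GFP to Ngn3-TOMATO for each measured and reported Kcn gene above 0 in both, with 95% counting intervals as grey bars and dashed lines at 2-fold; the open point has no interval because an estimate did not have status OK. Kcnj4 (2.88), Kcnj3 (2.14), Kcnj5 (1.42) and Kcnh1 (1.09) lie above the upper line, and Kcnc1 (-4.35) and Kcnk16 (-3.98) lie lowest. The Kcnc1 value rests in part on a model with the status LOWDATA.

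The 2-pore channels carry background potassium current that does not depend on opening by voltage. Some were highest in Ngn3-TOMATO and others in Ngn3-negative. Kcnk16 (chromosome 14, 20262756 to 20269162), an alkaline-activated channel known from pancreatic islets, reached 68.8 scaled FPKM in Ngn3-TOMATO, against 3.42 in GIP-GFP and 0.790 in Ngn3-negative. Its log2 ratio was 5.28 (4.80 to 5.77) for Ngn3-TOMATO over Ngn3-negative and -3.98 (-4.56 to -3.41) for GIP-GFP over Ngn3-TOMATO. Since Kcnk16 was below 1 in Ngn3-negative, it could only come out higher in the reporter sorts than there. The channel of the same subfamily encoded nearby, Kcnk5 (chromosome 14, 20140058 to 20181782), was arranged the other way, at 9.38, 14.0 and 58.0, with -1.97 (-2.08 to -1.86) for Ngn3-TOMATO over Ngn3-negative. So of these neighbouring paralogs one was highest in the lineage and the other in the Tomato-negative cells.

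Kcnk6 (48.9 in Ngn3-TOMATO) and Kcnk1 (147), which encode weakly conducting channels of the TWIK subfamily, were also highest in Ngn3-TOMATO. Kcnk6 was at 3.41 in GIP-GFP and 12.2 in Ngn3-negative, so GIP-GFP was the lowest, with a log2 ratio to Ngn3-TOMATO of -3.50 (-3.79 to -3.21). Kcnk1 was at 62.6 and 63.2 in GIP-GFP and Ngn3-negative, a log2 ratio of -0.01 (-0.14 to 0.11), and its 2-fold call for Ngn3-TOMATO over Ngn3-negative (1.20) was lost under equal totals (0.96). Goblet cell markers had the order of Kcnk6, with summed levels of 4860, 164000 and 29300 and none of the 6 at 0, as did the 5 Paneth cell markers (2260, 26700 and 4740). The 5 tuft cell markers also had that order (18.9, 129 and 63.4), with Il25 at 0 in GIP-GFP. Their part in these results was not tested.

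The mechanically gated and arachidonic acid-gated channel gene Kcnk2 was at 2.95, 7.33 and 0.168, and the acid-sensitive Kcnk3 at 1.43, 1.41 and 0.113. Both were below 1 in Ngn3-negative, so they could only come out lowest in Ngn3-negative. Kcnk10, a relative of Kcnk2, was instead highest there, at 2.75, 3.24 and 10.7. Kcnk12, which forms no current alone, was at 1.29 in Ngn3-TOMATO and 0.0628 in Ngn3-negative and was listed at 0 in GIP-GFP.

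Calcium- and sodium-activated channels couple potassium current to ion entry. The large-conductance (BK) channel gene Kcnma1 was at 10.6, 6.24 and 0.519, and its beta subunit gene Kcnmb2, which makes BK channels inactivate, at 10.9, 5.30 and 0.623. The pair was therefore close in level in each library and at least 3-fold higher in both reporter sorts than in Ngn3-negative. Both genes were below 1 in Ngn3-negative, so they could only come out higher in the reporter sorts. The BK gamma subunit gene Lrrc26, from a list of partner genes, had another order, at 14.8, 172 and 42.3. Kcnt1, a sodium-activated channel, was at 7.90, 11.5 and 0.260, so it too could only come out higher in the reporter sorts. Kcnu1, the pH-sensitive channel known from sperm, was at 1.66, 5.61 and 2.05, and its 2-fold call for Ngn3-TOMATO over Ngn3-negative (1.12, 0.71 to 1.52) was lost under equal totals (0.94).

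Kcne3, Kcnq1 and Kcnn4 encode subunits known from basolateral potassium recycling, and each was highest in Ngn3-negative. Kcne3 (chromosome 7, 100178683 to 100184869), the accessory subunit that holds KCNQ1 channels open in intestinal crypts, was at 62.4, 109 and 256 scaled FPKM. The log2 ratio was -1.22 (-1.36 to -1.08) for Ngn3-TOMATO and -2.02 (-2.26 to -1.78) for GIP-GFP over Ngn3-negative. Its pore partner Kcnq1 (chromosome 7, 143107254 to 143427042) was at 29.4, 84.9 and 101. Kcnq1 was thus nearly level between Ngn3-TOMATO and Ngn3-negative, at -0.25 (-0.33 to -0.18), and lower in GIP-GFP, at -1.75 (-1.88 to -1.62). Kcnn4, the intermediate-conductance calcium-activated channel that supports chloride secretion, was at 20.0, 29.3 and 73.0, ordered as Kcne3 was. Markers of enterocytes summed to 9700, 6590 and 34800 and those of stem cells to 731, 1120 and 2810, also highest in Ngn3-negative. Their part in these differences was not tested. Kcnq3 and Kcnq5, Kv7 genes known for the neuronal M-current, were below 1 throughout.

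**Figure D4:**
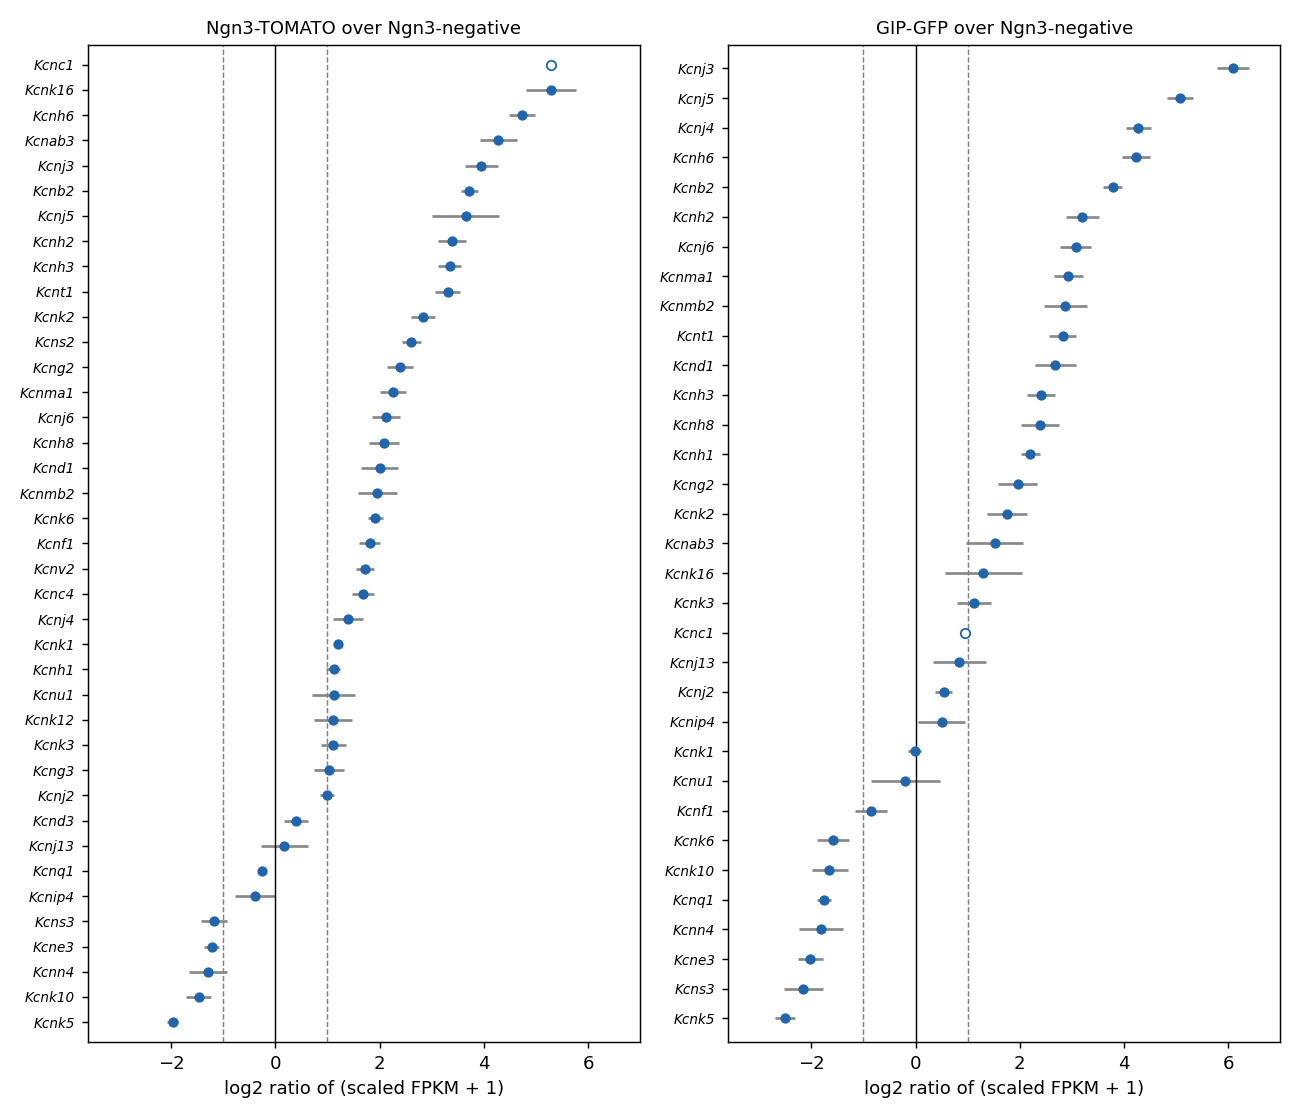
Log2 ratio of each reporter sort to Ngn3-negative for the measured and reported Kcn genes above 0 in both libraries of a pair, with 95% counting intervals as grey bars and dashed lines at 2-fold; the open point has no interval. Kcnc1 (5.29) and Kcnk16 (5.28) lead in Ngn3-TOMATO, Kcnj3 (6.09) and Kcnj5 (5.08) in GIP-GFP, and Kcnk5 is lowest in both (-1.97 and -2.51). The Kcnc1 value rests in part on a model with the status LOWDATA.

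Among the other accessory subunits Kcnab3, a cytoplasmic beta subunit of Kv1 channels, was at 2.95, 25.7 and 0.381. It peaked in Ngn3-TOMATO, with a log2 ratio of 4.27 (3.92 to 4.63) over Ngn3-negative, although no Kv1 gene reached 1 scaled FPKM. Being below 1 in Ngn3-negative, Kcnab3 could only come out higher in the reporter sorts. Its exons overlap the antisense gene Kcnab3os. Kcnip4, which binds Kv4 channels, was low in all libraries, at 2.35, 0.808 and 1.37.

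Below 1 scaled FPKM in every library but above 0 were also Kcna1, Kcna2, Kcna4, Kcna5, Kcna6, Kcna7, Kcnab1, Kcnab2, Kcnc2, Kcne1l, Kcne2, Kcne4, Kcng1, Kcng4, Kcnh4, Kcnh7, Kcnip1, Kcnip2, Kcnip3, Kcnk4, Kcnk7, Kcnk9, Kcnk13, Kcnk18, Kcnmb1, Kcnmb4, Kcnmb4os2, Kcnn1, Kcnn3 and Kcnrg. Listed at 0 in all 3 were Kcna10, Kcnd2, Kcnd3os, Kcne1, Kcnh5, Kcnj1, Kcnj12, Kcnk15, Kcnmb3, Kcnmb4os1, Kcnn2, Kcnq1ot1, Kcns1, Kcnt2 and Kcnv1. Antisense and sense reads cannot be told apart here, since no use of strand is stated. Of the measured members, 16 share exon sequence with another annotated gene and are uncertain to that extent, among them Kcnab3, Kcnd3, Kcne3, Kcng2, Kcnh3, Kcnip4, Kcnj13, Kcnj3, Kcnj6, Kcnk1, Kcnk2, Kcnk3, Kcnma1 and Kcnq1.

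A list of 22 partner genes and genes of the potassium gradient was read beside the family. Of the 14 measured for Ngn3-TOMATO over Ngn3-negative, 7 were at least 2-fold higher and 1 lower, beside 19.3% and 9.95% of all genes. Of the 13 measured for GIP-GFP over Ngn3-negative 6 were higher and 2 lower, beside 21.0% and 13.8%. Among those measured, Dpp6 and Hcn4 were below 1 in Ngn3-negative and could only come out higher. The pacemaker channel gene Hcn4, whose channel opens on hyperpolarisation, was at 32.4, 22.4 and 0.351, or a log2 ratio of 4.63 (4.41 to 4.85) for GIP-GFP over Ngn3-negative. Dpp6, a partner of Kv4 channels, was at 8.44, 3.58 and 0.0889, highest in GIP-GFP as Kcnd1 was. Amigo1, a partner of Kv2 channels, was at 26.4, 21.2 and 6.21. The Kcnq1 scaffold gene Akap9 was nearly level at 26.4, 33.5 and 35.6. The chloride importer gene Slc12a2, which also brings potassium into the cell, was at 55.9, 111 and 214, highest in Ngn3-negative.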

How the data were processed

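Polyadenylated RNA, pooled and not amplified, was made into 3 libraries with an Illumina TruSeq kit and read on a Genome Analyzer II, per the labels' protocols. The submitters' processing notes name FastQC, TopHat 1.5.0, Cufflinks and the mm10 build. For each of 59120 UCSC transcript models the authors deposited its length, coverage (mean reads per base), FPKM with a lower and an upper limit, and status, per the file headers. These deposited FPKM values add up to 10160000000 (GIP-GFP), 10740000000 (Ngn3-TOMATO) and 10370000000 (Ngn3-negative), far above usual totals, so their divisor is not the one the name states.

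Models were matched without strand to GENCODE M21 (same sequence) by ends, length and exon overlap, then to RefSeq gene spans, and 51418 received a symbol. Kcnab3os received no model and is not analysed here. Mitochondrial genes and genes with status HIDATA (0, 4 and 9 models) were left out. FPKM of models of 200 bases or more were summed per symbol and divided by 8167, the same number for all libraries. Log2 ratios used a pseudocount of 1, which understates differences of low genes, and genes at 1 or more in either library. Folds are on that scale. Intervals take the deposited upper limit as 2 standard errors, and none is given where a contributing model lacks status OK. The ratio and interval were tested on simulated data. Every member at 1 or more in some library is named with its 3 values, apart from a few members that are not reported here by name but remain in the counts and sums. Members and lists were chosen with earlier results of these data known. Work was done in Python 3.11.15 with pandas 2.3.3, numpy 2.4.6 and matplotlib 3.10.9. Results under 13 other settings are given at the end.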

Additional observations from a re-analysis of the deposited data

How the results depend on the processing

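Every count of members past 2-fold was recomputed under 13 other settings, of which the restriction to models with status OK was chosen after seeing the data. Of 78 such counts 70 stayed within 1.5 times the reported value. With a pseudocount of 5, the members at least 2-fold higher and lower in Ngn3-TOMATO than in Ngn3-negative numbered 18 and 3 instead of 31 and 5, and those lower in GIP-GFP than in Ngn3-TOMATO 8 instead of 14. With a pseudocount of 0.1, or with the most abundant transcript of each gene, 8 instead of 5 were higher in GIP-GFP than in Ngn3-TOMATO. Without genes that share exon sequence with another gene, which leaves fewer genes, 20 were higher in Ngn3-TOMATO and 11 in GIP-GFP than in Ngn3-negative, and 3 in GIP-GFP than in Ngn3-TOMATO. No median, and no ratio of Kcnb2, Kcnh6 or Kcnq1 past 2-fold, changed sign under the settings run. Of 87 values of these gene ratios 16 moved by more than the gene's counting error. Without the filter on low values the medians came to 0.25, 0.22 and -0.05 for Ngn3-TOMATO over Ngn3-negative, GIP-GFP over Ngn3-negative and GIP-GFP over Ngn3-TOMATO. Of the members, Kcnj13 (Ngn3-TOMATO over Ngn3-negative, equal totals) and Kcnk3 (GIP-GFP over Ngn3-TOMATO, median ratio), both near 0, changed sign with the scaling. No paired analysis was possible because each group is 1 pooled library.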

Other observations

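Several members have more than 1 transcript model, and how the reads were divided between models is the authors' estimate. For Kcnq1 the 3029-base model had 60.8 scaled FPKM in Ngn3-TOMATO, 76.6 in Ngn3-negative and 29.4 in GIP-GFP. The 2749-base model with the same ends was listed at 0 in GIP-GFP and stood at 24.1 in Ngn3-TOMATO and 24.7 (deposited limits 22.4 to 26.9) in Ngn3-negative. The level of Kcnq1 in GIP-GFP was thus all assigned to the longer model. For Kcnh6 the models of 2853 and 2959 bases were close in the reporter sorts, at 41.4 and 38.5 in GIP-GFP and 56.0 and 57.3 in Ngn3-TOMATO, while they stood at 1.10 and 2.22 in Ngn3-negative.

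The 2054-base model of Kcnj3 was at 115 (GIP-GFP), 22.3 (Ngn3-TOMATO) and 1.02 (Ngn3-negative), and the 1837-base model at 22.1, 7.99 and 0. The longer model was the larger part in each library. For Kcne3 an 816-base model held 33.4, 67.1 and 153 and a 1333-base model 20.6, 42.4 and 103, while a 1097-base model was above 0 in GIP-GFP alone, at 8.34 (3.43 to 13.2).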
